A study of Mus musculus with 17 samples.

Results

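Th2 cells taken from the inflamed airway were compared with Th2 cells of the lymph node that drains the lung, across all genes. The comparison used 6 of the 17 libraries of the series: the 3 airway and the 3 lymph node libraries that the labels give to the reporter mice. A gene entered when its deposited value was at least 1 in 3 or more of these 6 libraries, which kept 10275 of 24537 genes.

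Both groups came from GATIR mice, in which a yellow fluorescent protein (YFP) reports expression of Gata3, and all were labelled wild type. The mice had an airway inflammation driven by an allergen that the labels do not name. The airway group (Th2-BAL-GATIR-WT1 to WT3) was taken by bronchoalveolar lavage and the lymph node group (Th2-MLN-GATIR-WT1 to WT3) from the mediastinal lymph node. Cells were purified with antibodies and YFP by fluorescence-activated sorting, and libraries were made with Smart-seq2, a full-length method for small amounts of RNA. Age, sex, pooling of animals and any pairing of airway with lymph node samples are not in the labels. P-values therefore measure the spread between these libraries, which may be technical. The other 11 libraries came from OTII mice, whose CD4 T cells recognise ovalbumin. Of these, 7 were from the mediastinal lymph node of inflamed mice (3 labelled OTII and 4 OTII_Notch1/2-KO) and 4 from cultured Th2 cells (2 and 2). The cultures started from naive spleen T cells and ran for 7 days with CD3 and CD28 stimulation, IL-4 and antibodies to IFN-γ and IL-12/23. The OTII libraries differ from the reporter libraries in mouse strain and column naming, so their levels are set beside the reporter libraries with no test.

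Th2 cells are CD4 helper T cells that are instructed by Gata3 and secrete IL-4, IL-5 and IL-13. They are primed and expand in the draining lymph node and then enter the lung, where epithelial alarmins such as IL-33 can trigger them directly. Effector T cells that enter tissue are known for receptors that respond to tissue cytokines and chemokines.

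Values are RPKM (reads per kilobase of transcript, relative to the reads of the library) divided by 1 scaling factor per library. Fold changes are log2 of airway over lymph node on the scale log2(scaled RPKM + 1), with their standard error (SE). They come from limma, and p-values were adjusted by Benjamini-Hochberg over the 10275 genes. A gene is said to have risen or fallen where its adjusted p was below 0.05. Values per library are given in the order of replicates 1, 2 and 3. All group means have n = 3.

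Read totals per library, worked out from the steps of the deposited values, ran from 16334200 to 17459000. Replicates correlated across genes at 0.928 to 0.955 in the lymph node and at 0.789 to 0.863 in the airway, and airway replicate 3 correlated with the lymph node libraries at 0.862 to 0.896. Genes with a deposited RPKM of at least 20 in all OTII libraries are here called widely expressed. Airway replicates 1 and 2 listed 30 and 41 of these 2898 genes at 0, airway replicate 3 listed 2, and the lymph node libraries listed none. A 0 in airway replicate 1 or 2 may therefore be a missed transcript. It may also be a lower level, since the set holds genes that fell, such as Uhrf1. The main counts are also given with airway replicate 3 as the only airway library, an alternative chosen after seeing the data. The defining T cell markers were present in all 6 libraries. The 13 markers summed to 6168 to 7124 in the airway and 5279 to 5806 in the lymph node, and none was at 0 in either group. Of these markers 3 rose and none fell. Gata3 read 417, 481 and 354 in the airway and 339.8, 442 and 429 in the lymph node. Gata3, the gene behind the reporter, overlapped between the groups (0.04 on the log2 scale, SE 0.16) and its difference missed the threshold (adjusted p = 0.911). Cd4 and Cd3d did not pass either (adjusted p = 0.464 and 0.870). Notch1, a receptor named in the study, was low in both groups, at 3.08, 11.9 and 8.13 in the airway and 5.93, 9.05 and 5.66 in the lymph node (adjusted p = 0.991). Notch2 read 5.97, 7.48 and 6.60 against 4.45, 5.60 and 6.03 (adjusted p = 0.781).

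Macrophage transcripts were the main signal of another cell type. Summed over 26 markers they read 3913, 8305 and 3798 in the airway and 27.0, 60.8 and 30.5 in the lymph node, where 13 of the markers were at 0. The high sum of airway replicate 2 rested on Chil3. Without this gene the 3 airway sums were 2765, 2920 and 1377, and 10, 15 and 1 of the 26 markers were highest in airway replicates 1, 2 and 3. Of 19 macrophage markers tested, 17 rose. Chil3, a chitinase-like protein of airway macrophages, read 1147, 5385 and 2421 in the airway and 0.123, 0 and 0.0329 in the lymph node. Car4, a carbonic anhydrase, read 57.6, 265 and 119.9 in the airway and 0 in all 3 lymph node libraries, which makes it at least 1280-fold higher against a floor of 3 reads per library. Ear2, Ear3 and Ear12, ribonuclease genes that overlap in the tables, read 26.1 to 37.6 in the airway and 0 in the lymph node, and reads of the near-identical copies cannot be told apart. Basophil and mast cell markers moved the other way. They summed to 342, 191.6 and 197 in the airway and 625, 664 and 941 in the lymph node. Hdc, which makes histamine, read 248, 139 and 160.3 against 437, 426 and 738, and the basophil protease gene Mcpt8 read 28.5, 8.79 and 3.49 against 117, 139.7 and 140.4. The mast cell chymase gene Cma1 read 0 in all 3 airway libraries and 13.995, 20.045 and 6.57 in the lymph node. Since a 0 in airway replicate 1 or 2 may be a missed transcript, no fold bound is given for Cma1. The defining genes Fcer1a, Ms4a2, Gata2, Prss34, Tpsb2 and Ms4a3 were at 0 in all 6 libraries. B cell markers summed to 7.99 to 53.8 in the airway and 41.0 to 70.6 in the lymph node, and dendritic cell markers to 445 to 926 and 180 to 441. In such sorted bulk samples, fewer cells of a type and less RNA per cell cannot be told apart.

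**Figure D1:**
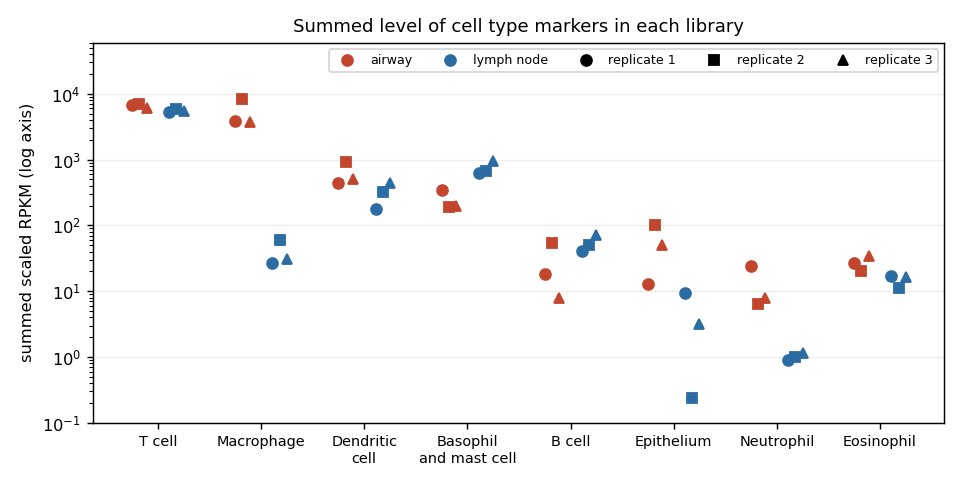
Summed scaled RPKM of the markers of 8 cell types (log axis) in each of the 3 airway (red) and 3 lymph node (blue) libraries, with 1 symbol per replicate. The macrophage sums of 3798 to 8305 in the airway lie above the 27.0 to 60.8 of the lymph node, while the T cell sums lie close together.

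Over all genes tested, 300 rose in the airway (2.92%) and 235 fell (2.29%). On unscaled RPKM the counts were 229 risen and 317 fallen, which puts 41.94% of calls on the higher side in place of 56.07%. All genes tested had a median log2 fold change of -0.08 with scaling and -0.20 without it. With airway replicate 3 as the only airway library, 28 rose and 22 fell. The counts also leaned on each lymph node library: without replicate 1, 2 or 3 of that group, 134, 127 or 101 rose and 50, 59 or 41 fell. A gene was therefore called kept where it passed in the same direction in all 7 fits, with all libraries and with each of the 6 left out in turn. Of all genes, 91 were kept as higher (0.886%) and 30 as lower (0.292%). Of these 121 genes, 34 passed with airway replicate 3 as the only airway library, 27 higher and 7 lower. Of the 27, 14 were below 1 in all 4 cultures, 8 of them macrophage markers such as Chil3 and Car4, and 10 were at least 1 in all 4. Genes discussed further that passed were Il1rl1, Ifngr1, Ctla2a, Rgs1, Samhd1, Slfn2, Plac8, Ly6a, Spp1, Atp6v0d2, Gzmb, Aurkb, Asf1b, Mcm5, Fdx1 and Tpi1. The 3 airway libraries lay above the 3 lymph node libraries without overlap in 1327 genes (12.9%) and below them in 1417 (13.8%).

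**Figure D2:**
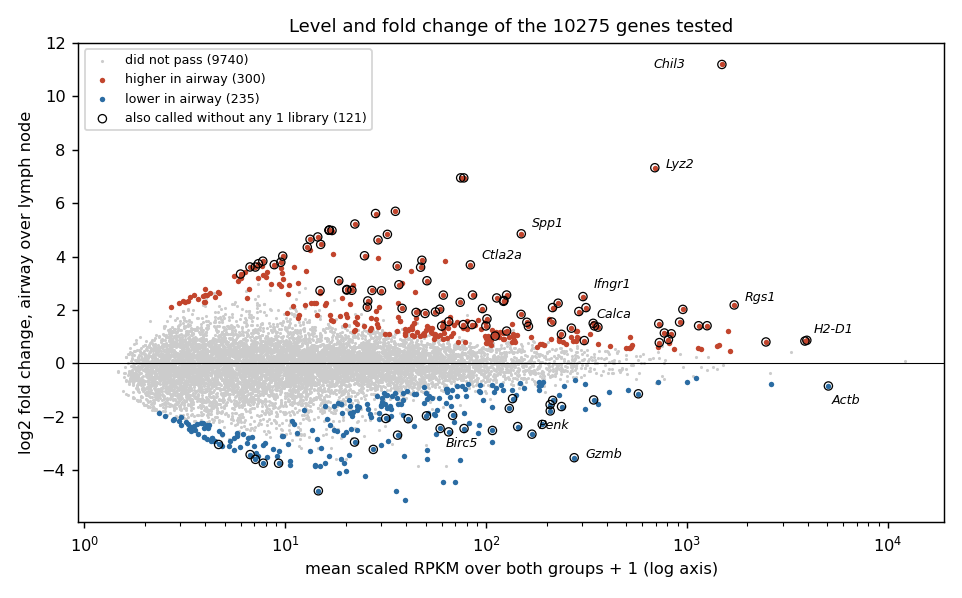
Log2 fold change, airway over lymph node, against the mean scaled RPKM of both groups plus 1 (log axis) for 10275 genes. Red points rose (300), blue points fell (235), grey points did not pass, and black rings mark the 121 genes that were kept, with Chil3 highest and Gzmb among the strongest falls at high level.

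Levels in the Th2 cultures, whose macrophage markers summed to 6.77 to 9.10, were set beside the called genes. Of the 300 genes that rose, 230 (76.7%) had a deposited RPKM of at least 1 in all 4 cultures and 58 (19.3%) read below 1 in all 4, against 92.3% and 4.56% of all genes tested. The 235 genes that fell were at least 1 in all cultures in 89.4% of cases. Of the 58 genes below 1 in culture, 43 had their highest airway value in replicate 2. Of the 230 genes found in culture, 91 were highest in airway replicate 1, 90 in replicate 2 and 49 in replicate 3. In the tables of the 2 kinds of mice, 22893 genes carry the same transcript and 1644 another.

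The genes known as the Th2 effector program did not move together. Of 18 tested 3 rose and 4 fell, with a median log2 fold change of 0.02. The 3 that rose, Il1rl1, Ccr8 and Plac8, were kept. The 4 that fell were Il4, Il13, Il17rb and Areg, and none of them fell when lymph node replicate 2 or 3 was left out. Il5, the growth factor of eosinophils, read 128, 219.9 and 115 in the airway and 105, 119 and 256 in the lymph node, with overlapping groups (adjusted p = 0.998). Il13, which drives mucus production, read 47.7, 34.2 and 29.6 against 58.6, 124 and 96.9 (-1.27, SE 0.31, adjusted p = 0.0482).

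Receptors for cytokines of the tissue were among the kept genes. Il1rl1 encodes ST2, the receptor of the alarmin IL-33. It read 205, 183 and 219 in the airway and 37.5, 39.1 and 42.2 in the lymph node. The groups lay far apart and each was tight (log2 fold change 2.32, SE 0.17, adjusted p = 2.83e-04). Cultured Th2 cells read 0.0483 to 0.107 and OTII lymph node cells 0.154 to 1.89, so the lymph node reporter cells stood well above both. Ifngr1, the ligand-binding chain of the interferon gamma receptor, read 521, 558 and 465 in the airway and 77.2, 102 and 92.8 in the lymph node (2.50, SE 0.15, adjusted p = 1.13e-04). In culture it read 139.6 to 190.1, between the reporter groups. Il7r, the receptor of the survival cytokine IL-7, rose from 52.6, 40.3 and 49.6 in the lymph node to 149, 143 and 165 in the airway (1.67, SE 0.18, adjusted p = 0.00171). Il17rb, the receptor of the other epithelial alarmin IL-25, went the opposite way. It read 52.4, 25.0 and 24.03 in the airway and 101.3, 142 and 116 in the lymph node (-1.87, SE 0.31, adjusted p = 0.0110), which did not pass when lymph node replicate 2 or 3 was left out. In all, 4 of 30 cytokine receptor genes rose and 1 fell, and the median log2 fold change was 0.19.

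Signal transducers of these receptors were listed separately. Of 24 JAK-STAT and SOCS genes tested 5 rose and none fell, with a median log2 fold change of 0.46. Stat3, which carries signals of the IL-6 and IL-21 receptor families, read 141, 146 and 156 in the airway and 72.9, 69.0 and 74.6 in the lymph node (1.02, SE 0.15, adjusted p = 0.00809). The groups were separated by more than their spread, and Stat3 was the only kept gene of this list. Stat2, part of the interferon-induced complex ISGF3, read 63.2, 54.3 and 47.1 against 21.2, 13.7 and 12.7 (1.75, SE 0.28, adjusted p = 0.00999), and did not pass when lymph node replicate 2 or 3 was left out. The survival kinase gene Pim2 rose as well (1.56, SE 0.26, adjusted p = 0.0110) and was lost without lymph node replicate 3. Without airway replicate 1, 3 genes of the list rose, and without lymph node replicate 2 or 3, 2 and 1. The count was 3 with RPKM as deposited, 1 without a variance trend and 6 with a pseudocount of 5.

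**Figure D3:**
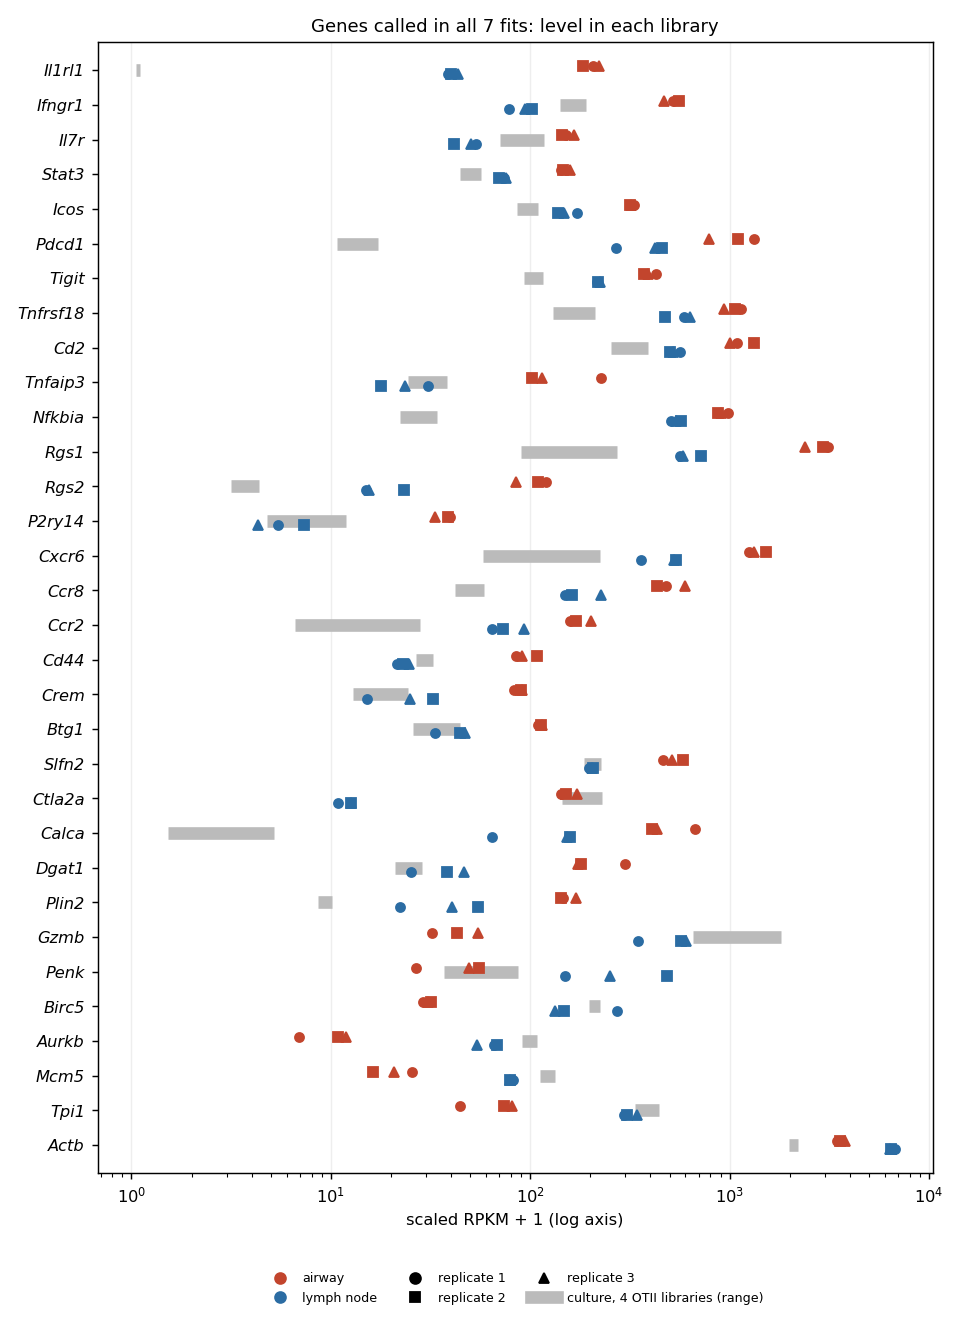
Scaled RPKM plus 1 (log axis) of 32 kept genes in the 3 airway (red) and 3 lymph node (blue) libraries, with 1 symbol per replicate and the range of 4 OTII culture libraries as a grey bar. Airway and lymph node symbols do not overlap in any row, which held for all 300 genes that rose and all 235 that fell. Il1rl1 is near 0 in culture, while Ctla2a is as high there as in the airway.

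Secreted factors split in direction. Of 23 T cell cytokine and chemokine genes 2 rose and 6 fell, with a median log2 fold change of -0.62. Calca encodes calcitonin gene-related peptide, a neuropeptide that also acts on lymphocytes. It read 668, 407 and 433 in the airway and 63.4, 156 and 151 in the lymph node (2.09, SE 0.34, adjusted p = 0.0107), and at most 4.17 in culture. Penk, which encodes the opioid precursor proenkephalin, read 25.6, 54.5 and 48.1 in the airway and 148, 482 and 251 in the lymph node (-2.65, SE 0.42, adjusted p = 0.00953). Both neuropeptide genes were kept, in opposite directions. Areg, an epidermal growth factor family ligand, fell from 53.8, 97.9 and 88.9 in the lymph node to 24.6, 18.9 and 19.4 in the airway (-1.85, SE 0.28, adjusted p = 0.00809). Il4 read 187, 164 and 91.6 against 331, 512 and 579 (-1.70, SE 0.29, adjusted p = 0.0124). Neither Areg nor Il4 passed when lymph node replicate 2 or 3 was left out, and 1 gene of the list then fell. The basophil genes Hdc and Mcpt8 fell in the same libraries, and their part in the lower Il4 was not tested. Without airway replicate 3, 3 genes of the list fell. Ccl5, a chemokine, read 44.3, 79.2 and 33.9 in the airway and 6.14, 0 and 3.88 in the lymph node (3.94, SE 0.71, adjusted p = 0.0155), a call lost without lymph node replicate 3. Spp1, the secreted phosphoprotein osteopontin, rose from 11.5, 5.82 and 10.1 to 367, 228 and 269.7 (4.85, SE 0.29, adjusted p = 1.04e-04). Macrophages also express Spp1. It is a member of the macrophage marker list, and the part of macrophage RNA in its rise was not tested. In culture it read 1.97 to 4.29, measured on another transcript.

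Costimulatory and checkpoint receptors were higher in the airway in 6 of 34 cases and lower in 2, with a median log2 fold change of 0.30. Pdcd1 encodes the inhibitory receptor PD-1 and read 1319, 1095 and 783 in the airway against 268, 455 and 419.9 in the lymph node (1.49, SE 0.24, adjusted p = 0.0100). Both groups were far above culture, at 9.79 to 16.3. Icos, a costimulatory receptor of the CD28 family, rose from 170.2, 137 and 146 to 329, 316 and 319 (1.09, SE 0.14, adjusted p = 0.00432). Tigit, an inhibitory receptor, read 428, 372 and 388 against 215, 218 and 223 (0.85, SE 0.12, adjusted p = 0.00740). Tnfrsf18, which encodes the costimulator GITR, read 1141, 1067 and 939 against 592, 475 and 635 (0.89, SE 0.14, adjusted p = 0.00940). These 4 genes were kept. Tnfrsf9 (4-1BB), a receptor induced by recent activation, fell from 70.3, 103 and 121 to 49.6, 19.4 and 29.9 (-1.61, SE 0.35, adjusted p = 0.0315). Its call held with airway replicate 1 left out and was lost with each of the other 5. No gene of the list fell when airway replicate 2, or lymph node replicate 2 or 3, was left out. Cd2, an adhesion receptor of the T cell synapse, rose from 559, 502 and 521 to 1092, 1330 and 1008 (1.11, SE 0.13, adjusted p = 0.00263). It was the only kept gene of 39 T cell receptor signalling genes, of which 5 rose and none fell (median 0.04). Without 1 library at a time 1 to 3 of them rose, with the fewest without lymph node replicate 3.

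T cell receptor, TNF and IL-1 family receptors activate the factor NF-kB. Tnfaip3 encodes A20, an enzyme that ends NF-kB signalling. It read 225, 100.4 and 113 in the airway and 29.6, 16.8 and 22.5 in the lymph node (2.56, SE 0.33, adjusted p = 0.00506). Airway replicate 1 was the highest, and all 3 lay above the lymph node. Nfkbia, the inhibitor that holds NF-kB in the cytoplasm, rose from 505, 569 and 534 to 979, 876 and 901 (0.78, SE 0.11, adjusted p = 0.00698). Of 27 NF-kB genes 3 rose and none fell (median 0.18); the third, Traf1, lost its call without any 1 of 5 libraries, all but airway replicate 1. The 150 bases before the start of Nfkbia are shown since NF-kB is known to drive its own inhibitor (mm10, chr12:55492648-55492797, minus strand, RefSeq, GRCm38.p6, written 5′ to 3′). Capitals mark the letters GGGANTTTC, searched on both strands, which occur in the 250 bases before the start in 0.941% of the 32851 promoters of the table.

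Nfkbia: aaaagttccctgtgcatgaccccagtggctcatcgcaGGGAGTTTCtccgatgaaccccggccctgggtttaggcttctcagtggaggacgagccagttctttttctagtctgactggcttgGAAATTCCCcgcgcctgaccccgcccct

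Nfkbia holds 2 such matches, starting 113 and 28 bases before the start. A match of letters describes the sequence and is not a measured binding site.

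Immediate early genes, which follow a recent receptor signal, did not move as 1 group. Of 33 tested 3 rose and 1 fell, and the median log2 fold change was -0.20. Crem, a cyclic AMP responsive repressor, read 81.6, 88.3 and 90.1 in the airway and 14.2, 31.5 and 23.8 in the lymph node (1.93, SE 0.29, adjusted p = 0.00809). Dusp1, a phosphatase of MAP kinases, rose from 189, 225 and 208 to 376, 561 and 402 (1.08, SE 0.17, adjusted p = 0.00965), a call lost without lymph node replicate 1 or 3. Egr1, the early growth response factor, fell from 62.6, 70.1 and 81.4 to 26.7, 29.7 and 26.6 (-1.33, SE 0.21, adjusted p = 0.00941), and did not pass when lymph node replicate 2 or 3 was left out. Nfatc1, a calcium-dependent factor of another list, fell too (-1.29, SE 0.26, adjusted p = 0.0235), but not when any 1 lymph node library was left out. Both Crem and the antiproliferative gene Btg1 of this list were kept.

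Chemokine receptors guide T cells to and within tissue. Of 13 chemokine receptor genes tested 4 rose and none fell, and their median log2 fold change was 1.15. Cxcr6, the receptor of CXCL16, read 1242, 1521 and 1327 in the airway and 356, 537 and 526 in the lymph node (1.54, SE 0.17, adjusted p = 0.00191). Ccr8, a receptor of Th2 cells, read 477, 432 and 599 against 148, 162 and 226 (1.5, SE 0.19, adjusted p = 0.00468). Ccr2 read 156, 169 and 200.1 against 63.6, 72.1 and 91.5 (1.21, SE 0.19, adjusted p = 0.00939). All 3 were kept, and in culture they read at most 222, 57.4 and 27.1. Among 38 other G protein receptor and RGS genes 5 rose and none fell, with a median of 0.06. Rgs1, which shortens chemokine receptor signals, read 3127, 2933 and 2396 in the airway and 559.7, 714 and 581 in the lymph node (2.19, SE 0.14, adjusted p = 1.33e-04). Rgs2 rose from 13.98, 22.3 and 14.6 to 119, 109 and 83.4 (2.56, SE 0.26, adjusted p = 0.00145). P2ry14, a receptor for UDP-sugars that damaged cells release, rose from 4.41, 6.36 and 3.33 to 38.7, 37.5 and 32.5 (2.74, SE 0.35, adjusted p = 0.00462). The range of P2ry14 in culture, 3.77 to 10.9, overlapped that of the lymph node. With airway replicate 3 or any 1 lymph node library left out, 3 of these 38 genes rose.

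Adhesion genes rose in 6 of 27 cases and none fell (median 0.40). Cd44, a hyaluronan receptor, read 83.3, 107 and 90.0 in the airway and 20.6, 22.0 and 23.6 in the lymph node (2.03, SE 0.21, adjusted p = 0.00146). Ly6a (Sca-1) read 2205, 1191 and 1624 against 581, 619 and 633 (1.41, SE 0.20, adjusted p = 0.00691). Cd9, a tetraspanin that macrophages express as well, read 43.8, 169 and 48.7 against 8.11, 2.73 and 5.22 (3.60, SE 0.55, adjusted p = 0.00821). Its highest value was in airway replicate 2, and what part macrophage RNA had in it was not tested. Without lymph node replicate 1 or 3, 3 adhesion genes rose.

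The interferon response had the highest share of risen genes among the program lists. These are separate from the cell type marker lists but share some genes with them, such as Atp6v0d2 and Fabp4. Of 51 genes tested 21 rose, none fell and 30 did not pass, and the median log2 fold change was 1.20. All 51 log2 fold changes were positive with scaling and 50 with RPKM as deposited. Samhd1, a nucleotide hydrolase that restricts viruses, read 325, 314 and 399 in the airway and 87.0, 73.9 and 80.1 in the lymph node (2.09, SE 0.16, adjusted p = 3.29e-04). Igtp, an interferon-induced GTPase, read 203, 262 and 231 against 80.4, 59.6 and 54.3 (1.84, SE 0.19, adjusted p = 0.00164). Irf7, the factor that amplifies interferon production, rose from 51.7, 28.4 and 22.8 to 214, 115 and 239.7 (2.45, SE 0.35, adjusted p = 0.00755). Dhx58 and Zbp1, which sense viral nucleic acids, were kept as well. Dhx58 read 55.0, 27.4 and 44.4 against 7.65, 7.36 and 6.72, and Zbp1 read 268, 168 and 274 against 84.7, 93.8 and 61.9. Less stable were genes such as Ifit1, at 70.9, 54.5 and 94.0 in the airway and 25.0, 1.72 and 2.91 in the lymph node (3.47, SE 0.74, adjusted p = 0.0301), where lymph node replicate 1 stood apart from the other two. Without airway replicate 3 the count was 9, and without lymph node replicate 2 or 3 it was 6 or 5; with airway replicate 3 as the only airway library it was 1. Macrophages also express such genes. Of the 21 genes, 17 read at least 1 in all 4 cultures, and 15 had their lowest airway value in replicate 2. That library had the highest macrophage sum, which rested on Chil3, and also the most widely expressed genes at 0 (41). It was the only airway library with Y-linked transcripts as well. The part of macrophage RNA, of missed transcripts and of the sex of the animals in these values was not tested.

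**Figure D4:**
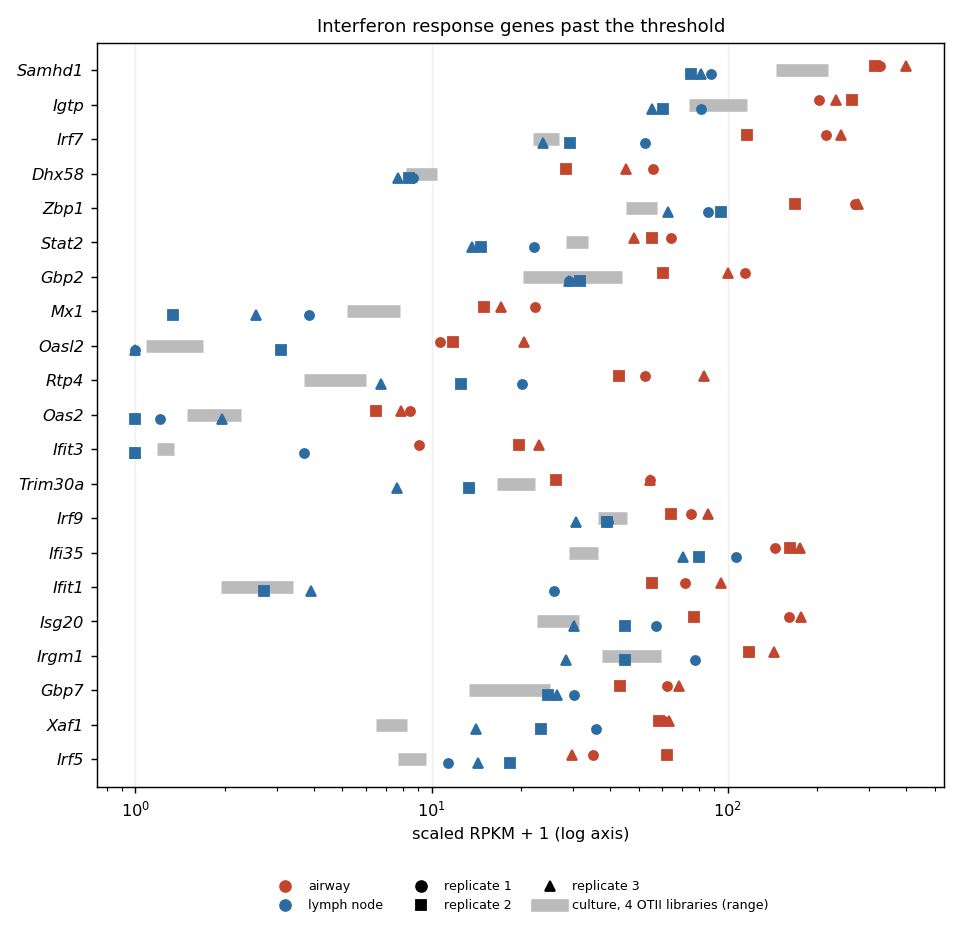
Scaled RPKM plus 1 (log axis) of the 21 interferon response genes that rose, in 3 airway (red) and 3 lymph node (blue) libraries, with 1 symbol per replicate and the range of 4 OTII cultures as a grey bar. In 15 of the rows the square, airway replicate 2, is the lowest airway symbol.

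Interferon-stimulated response elements are known to bind ISGF3, which holds Stat2. The sequences before the start of 4 genes that rose are shown to make such letters visible, chosen from genes with a match. Each holds 150 bases, 5′ to 3′ (mm10, RefSeq, GRCm38.p6). Capitals mark GAAANNGAA on either strand. They come from Igtp (chr11:58199406-58199555, plus strand), Ifit1 (chr19:34640739-34640888, plus strand), Gbp2 (chr3:142620513-142620662, plus strand) and Irgm1 (chr11:48871421-48871570, minus strand).

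Igtp: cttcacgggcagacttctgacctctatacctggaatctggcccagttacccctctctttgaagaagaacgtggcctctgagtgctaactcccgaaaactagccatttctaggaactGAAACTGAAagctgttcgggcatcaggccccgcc
Ifit1: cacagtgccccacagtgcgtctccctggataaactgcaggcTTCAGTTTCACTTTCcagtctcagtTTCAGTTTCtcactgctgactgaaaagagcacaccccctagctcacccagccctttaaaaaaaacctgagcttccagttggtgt
Gbp2: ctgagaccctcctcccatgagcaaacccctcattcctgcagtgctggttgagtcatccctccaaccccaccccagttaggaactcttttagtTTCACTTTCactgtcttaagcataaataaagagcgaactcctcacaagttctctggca
Irgm1: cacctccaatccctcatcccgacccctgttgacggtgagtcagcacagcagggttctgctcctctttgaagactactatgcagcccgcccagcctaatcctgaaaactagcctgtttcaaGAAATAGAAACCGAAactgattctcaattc

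The letters begin 34 bases before the start in Igtp and 58 in Gbp2. Ifit1 holds 3 matches and Irgm1 holds 2, which overlap. Across all 32851 promoters of the table, 7.13% hold at least 1 match in the 250 bases before the start. Only 39 of the 51 interferon genes (76.5%) had a promoter in the table, and 19 of these held a match. Of the 21 interferon genes that rose, 16 had a promoter. A match was found in 8 of these 16, and the others held none in the 250 bases. Over all genes that rose only 70.7% had a promoter, so these shares are not compared with those of other genes.

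Genes of cell division were lower in the airway. Of 69 genes of the G2 phase and mitosis 42 fell, none rose and 27 did not pass. Their median log2 fold change was -2.16, and 68 of 69 were negative with scaling and as deposited. Of 50 genes of the G1/S transition and DNA replication 16 fell and none rose (median -1.5). Birc5 (survivin), a subunit of the chromosomal passenger complex, read 28.1, 30.9 and 29.8 in the airway and 272, 147 and 131 in the lymph node (-2.52, SE 0.27, adjusted p = 0.00178). Aurkb, the kinase of that complex, read 5.96, 9.86 and 10.9 against 64.4, 67.1 and 53.2 (-2.69, SE 0.30, adjusted p = 0.00199). Tubb5, a beta tubulin, fell from 586, 408 and 492 to 186, 192 and 189 (-1.37, SE 0.15, adjusted p = 0.00194). Stmn1, a microtubule destabiliser, fell from 282, 211 and 219 to 26.4, 49.8 and 67.7 (-2.37, SE 0.31, adjusted p = 0.00527). The kinetochore gene Spc25 read 2.50, 4.53 and 4.87 against 55.2, 25.8 and 33.8 (-2.95, SE 0.42, adjusted p = 0.00698). Among replication genes, the helicase subunit Mcm5 read 24.6, 15.2 and 19.6 against 81.3, 78.3 and 77.6 (-1.97, SE 0.24, adjusted p = 0.00344). The histone chaperone gene Asf1b read 19.1, 10.02 and 26.0 against 90.9, 97.7 and 104 (-2.44, SE 0.32, adjusted p = 0.00551). Pclaf, a partner of the replication clamp PCNA, fell from 65.7, 35.5 and 44.0 to 1.98, 5.40 and 6.02 (-3.23, SE 0.43, adjusted p = 0.00580). Airway values were thus low but above 0 for most of these genes. All 42 fallen mitosis genes and all 16 fallen replication genes read at least 1 in all 4 cultures.

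The number of fallen division genes rested on the lymph node libraries. Without lymph node replicate 1, 2 or 3, 11, 14 or 13 mitosis genes and 2, 6 or 4 replication genes fell. With airway replicate 3 as the only airway library, 5 and 4 fell. Kept were 11 mitosis and 2 replication genes. Airway replicate 3 had the lowest airway value in 1 of 42 mitosis genes and in 0 of 16 replication genes, while replicate 2, which lists most widely expressed genes at 0, had it in 24 and 9. Ribonucleotide reductase subunit Rrm2, for example, read 28.2, 9.78 and 41.8 in the airway and 212, 176 and 166 in the lymph node (-2.96, SE 0.44, adjusted p = 0.00779) and was lost without lymph node replicate 1. The widely expressed genes at 0 in replicate 2 include genes that fell, such as Uhrf1. What part missed transcripts had in these counts was not tested.

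Many mitosis genes carry a cell cycle homology region, TTTGAA, near the start, often with CCAAT boxes, and complexes of the DREAM and MuvB family are known to repress them there outside division. The 150 bases before the start of 4 fallen genes, chosen from genes with a match, are printed with TTTGAA on either strand in capitals (mm10, RefSeq, GRCm38.p6, 5′ to 3′). They are Cdk1 (chr10:69352913-69353062, minus strand), Cdc20 (chr4:118437344-118437493, minus strand), Cks1b (chr3:89418292-89418441, minus strand) and Ube2c (chr2:164769779-164769928, plus strand).

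Cdk1: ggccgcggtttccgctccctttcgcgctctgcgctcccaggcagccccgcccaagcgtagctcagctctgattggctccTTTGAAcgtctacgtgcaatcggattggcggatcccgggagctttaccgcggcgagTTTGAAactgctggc
Cdc20: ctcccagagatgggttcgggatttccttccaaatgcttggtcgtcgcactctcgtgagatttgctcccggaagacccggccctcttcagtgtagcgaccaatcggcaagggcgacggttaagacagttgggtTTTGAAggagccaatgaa
Cks1b: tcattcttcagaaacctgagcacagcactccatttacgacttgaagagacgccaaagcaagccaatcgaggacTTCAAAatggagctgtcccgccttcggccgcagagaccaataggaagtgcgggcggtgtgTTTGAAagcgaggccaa
Ube2c: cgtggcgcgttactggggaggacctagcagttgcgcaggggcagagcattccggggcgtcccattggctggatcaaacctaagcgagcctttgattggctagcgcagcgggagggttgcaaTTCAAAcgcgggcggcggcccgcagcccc

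In Cdk1 and Cks1b matches start 71 and 15, and 77 and 17, bases before the start, in Cdc20 18 and in Ube2c 29. Of the 69 mitosis genes tested, 57 (82.6%) had a promoter in the table. TTTGAA occurred in 21 of these (36.8%), CCAAT in 43 (75.4%) and both in 20 (35.1%). Over all promoters of the table the shares were 16.0%, 33.9% and 5.55%, and over the 7953 promoters of tested genes 11%, 37.3% and 4.38%. Of the 42 mitosis genes that fell, 33 had a promoter, and TTTGAA occurred in 11 of these (33.3%). The mitosis list was written from knowledge of division genes, so these shares describe the list and not the difference between airway and lymph node. Cdk1, the mitotic kinase, read 9.87, 4.96 and 9.34 in the airway and 31.1, 31.7 and 36.6 in the lymph node (-1.96, SE 0.35, adjusted p = 0.0146). Cdc20, an activator of the anaphase complex, read 7.25, 0 and 14.96 in the airway and 139, 82.2 and 117 in the lymph node (-4.45, SE 0.85, adjusted p = 0.0201). None of these 4 genes passed when any 1 lymph node library was left out, and Cks1b did not pass when airway replicate 3 was.

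Genes linked to a resting state did not move as 1 group. Of 25 inhibitors of the cell cycle and quiescence genes 3 rose and none fell (median -0.07). Of the 3, 2 were kept, and over all genes tested 2.92% rose. Slfn2, needed for T cell quiescence, read 459.8, 584 and 510.2 in the airway and 196, 205 and 202 in the lymph node (1.36, SE 0.13, adjusted p = 0.00141). Btg1 read 108, 112 and 113 against 32.3, 43.2 and 46.1 (1.45, SE 0.20, adjusted p = 0.00618). Tsc22d3 (GILZ), a target of glucocorticoids, read 440.1, 199 and 302 against 107, 70.7 and 109 (1.65, SE 0.29, adjusted p = 0.0140) but not when any 1 lymph node library was left out.

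Of 10 cytotoxic granule genes 1 rose and 1 fell, and the fallen gene was kept. Gzmb, the protease granzyme B, fell from 345, 568 and 601 in the lymph node to 31.1, 42.1 and 53.8 in the airway (-3.54, SE 0.26, adjusted p = 3.29e-04). Cultured Th2 cells read 653 to 1809.8, above both groups. OTII lymph node cells read 1.16 to 184, below the reporter lymph node. Outside that list, Ctla2a, a cathepsin inhibitor of activated T cells, rose from 9.83, 11.6 and 11.6 to 141, 149.7 and 171 (3.69, SE 0.21, adjusted p = 9.49e-05). Its culture range of 144 to 229 overlapped the airway and not the lymph node, and OTII lymph node cells read 18.4 to 111. Its paralog Ctla2b read 23.1, 26.9 and 24.6 against 2.955, 2.54 and 3.26, and reads of the 2 similar genes may have been split between them. Ctss, a cathepsin that macrophages also express, rose from 103, 74.6 and 60.5 to 345, 443 and 338 (2.25, SE 0.21, adjusted p = 0.00131).

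Lysosome and autophagy genes rose in 11 of 46 cases and none fell (median 0.44). Without lymph node replicate 1, 2 or 3, 4, 6 or 4 rose, and with airway replicate 3 as the only airway library 1 did. Npc2, a cholesterol carrier of the lysosome, read 135, 118 and 178 against 43.8, 58.6 and 58.2 (1.40, SE 0.21, adjusted p = 0.00821) and 105 to 179 in culture. Atp6v0d2, a proton pump subunit known from macrophages and osteoclasts, read 35.5, 42.2 and 18.7 in the airway and 0 in the lymph node, at least 540-fold higher in the airway against a floor of 3 reads per library. Of the 11 genes, 8 had their highest airway value in replicate 2, and the part of macrophage RNA was not tested.

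Lipid storage genes rose in 5 of 28 cases and none fell (median 0.26), and 4 were kept. Dgat1, which makes triglycerides, read 296, 178 and 172 in the airway and 24.2, 37.3 and 45.5 in the lymph node (2.56, SE 0.29, adjusted p = 0.00199). Plin2, a coat protein of lipid droplets, read 145, 142 and 168 against 21.1, 54.0 and 39.7 (2.05, SE 0.31, adjusted p = 0.00809). Both were found in culture, at 19.9 to 27.8 and 7.64 to 9.14, below their airway values. Lpl and Fabp4, a lipase and a fatty acid carrier that macrophages express, were at 0 in all 4 cultures. Lpl read 12.5, 16.8 and 8.75 in the airway, and Fabp4 16.4, 21.8 and 11.9. Of the 5 genes that rose, 2 read at least 1 in all 4 cultures and 3 read below 1 in all 4. What part macrophage RNA had in the rises of this list was not tested.

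Fth1, the ferritin heavy chain that stores iron, rose from 481, 474 and 490.3 to 1077, 1097 and 1006 (1.14, SE 0.10, adjusted p = 0.00106). The SD was 47.6 in the airway and 8.35 in the lymph node, small beside the difference between the means of 1060.2 and 482. Gpx4, which removes lipid peroxides, rose from 152, 178 and 144 to 306, 319 and 283 (0.94, SE 0.14, adjusted p = 0.00809), a call lost without lymph node replicate 3. In all 6 of 40 redox and metal genes rose and none fell (median -0.03), 3 without lymph node replicate 2 and 2 without lymph node replicate 3. Mgst1, kept like Fth1, read 9.40, 19.8 and 7.37 in the airway and 0 in the lymph node and in culture. Of the 6 genes, 5 had their highest airway value in replicate 2. In culture 4 read at least 1 in all libraries and 2 read below 1 in all. The part of macrophage RNA was not tested.

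Glycolysis and hypoxia genes fell in 10 of 39 cases and none rose (median -0.60), with 3, 3 or 2 falls without lymph node replicate 1, 2 or 3 and 1 with airway replicate 3 as the only airway library. Tpi1, triose phosphate isomerase, read 43.3, 72.6 and 80.2 in the airway and 293, 303 and 343 in the lymph node (-2.29, SE 0.23, adjusted p = 0.00141). Pkm, pyruvate kinase, fell from 636, 666 and 722 to 283, 403 and 329.8 (-1.01, SE 0.15, adjusted p = 0.00780), lost without lymph node replicate 3. Hif1a, the hypoxia factor itself, rose from 60.4, 60.2 and 60.5 to 196, 108 and 148 (1.26, SE 0.23, adjusted p = 0.0152), but did not pass when any 1 lymph node library was left out. Tpi1, Tuba1b, H2afz and other genes of these lists have many processed pseudogenes, and how reads that match several copies were counted is not given in the sources used here. Ucp2, a carrier of the mitochondrial inner membrane, fell from 774, 881 and 701 to 431, 288 and 357 (-1.14, SE 0.17, adjusted p = 0.00755). Fdx1, which passes electrons to mitochondrial P450 enzymes, fell from 89.5, 129.8 and 111 to 13.8, 22.7 and 17.1 (-2.57, SE 0.26, adjusted p = 0.00141). Culture and OTII lymph node cells read 6.70 to 12.2 for Fdx1, below both reporter groups. Of 71 respiration genes 2 fell, and of 42 ribosome biogenesis genes 2 fell (medians -0.29 and -0.53).

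Cytoskeletal genes changed in both directions, with 4 of 45 risen and 5 fallen (median -0.12). Actb, cytoplasmic beta actin, read 3467, 3576 and 3804 in the airway and 6716, 6419 and 6395 in the lymph node (-0.85, SE 0.09, adjusted p = 0.00141). Gsn, gelsolin, which severs actin filaments, read 140.0, 81.7 and 131 against 311, 399 and 356 (-1.62, SE 0.22, adjusted p = 0.00551). Pfn1, profilin, which feeds actin monomers to filaments, fell as well (-0.77, SE 0.11, adjusted p = 0.00767) and was lost without lymph node replicate 3. Lmna, the nuclear lamina protein lamin A, rose from 1.07, 11.3 and 17.1 to 82.5, 152 and 104 (3.83, SE 0.70, adjusted p = 0.0170), a call lost without airway replicate 3. Anxa1, a phospholipid-binding mediator, rose from 3.80, 11.4 and 15.7 to 66.2, 134 and 67.2 (3.09, SE 0.48, adjusted p = 0.00919). Actb, Gsn and Anxa1 were kept. With lymph node replicate 2 or 3 left out, 3 or 2 cytoskeletal genes fell. With airway replicate 3, or lymph node replicate 1 or 3, left out, 2 rose.

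By size of the difference in mean level, MHC class I genes were among the largest rises beside the macrophage genes Chil3 and Lyz2. H2-D1, a class I heavy chain, read 5634, 4726 and 4939 in the airway and 2655, 3197 and 2573 in the lymph node (0.86, SE 0.12, adjusted p = 0.00586). H2-L, which overlaps H2-D1 in the tables, gave nearly the same values, so that the pair is 1 measurement. Plac8, a cysteine-rich protein of effector lymphocytes, read 1592, 1102 and 1917 against 321, 403 and 386 (2.02, SE 0.20, adjusted p = 0.00141). Izumo1r (folate receptor 4), known from regulatory and follicular T cells, fell from 362, 272 and 295 to 89.4, 115 and 111 (-1.55, SE 0.17, adjusted p = 0.00187). It read only 2.28 to 7.08 in culture. In OTII lymph node cells it read 159 to 424, a range that holds the reporter lymph node values.

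Across the 37 program lists, the share of members past the threshold ranged widely. Mitosis (42 of 69), replication (16 of 50) and glycolysis (10 of 39) had the highest shares of fallen genes among lists with at least 30 members tested, against 2.29% of all genes. Interferon response (21 of 51), lysosome (11 of 46) and checkpoint receptors (6 of 34) had the highest shares of risen genes among the same lists, against 2.92%. Smaller lists with high shares of risen genes were chemokine receptors (4 of 13), adhesion (6 of 27) and JAK-STAT (5 of 24). Smaller lists with high shares of fallen genes were T cell cytokines and chemokines (6 of 23) and Th2 effector genes (4 of 18). Without lymph node replicate 2 or 3, 1 cytokine gene and 0 effector genes fell. Survival and death genes (1 of 35 risen) and tRNA synthetase and ATF4 genes (1 risen and 1 fallen of 30) lay close to the background in these shares. So did proteasome (1 fallen of 36), cholesterol synthesis (1 fallen of 30) and respiration genes (2 fallen of 71). Even so, 28 of 36 proteasome and 60 of 71 respiration genes had negative log2 fold changes, against 5593 of 10275 genes tested. Of 47 T cell transcription factor genes 3 rose and 1 fell, and none was kept. Of 43 chromatin genes 5 fell and of 42 chaperone genes 4 fell. With lymph node replicate 1, 2 or 3 left out, 0, 1 or 0 chromatin genes and 1, 2 or 1 chaperone genes fell. Some genes stand in more than 1 list.

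**Figure D5:**
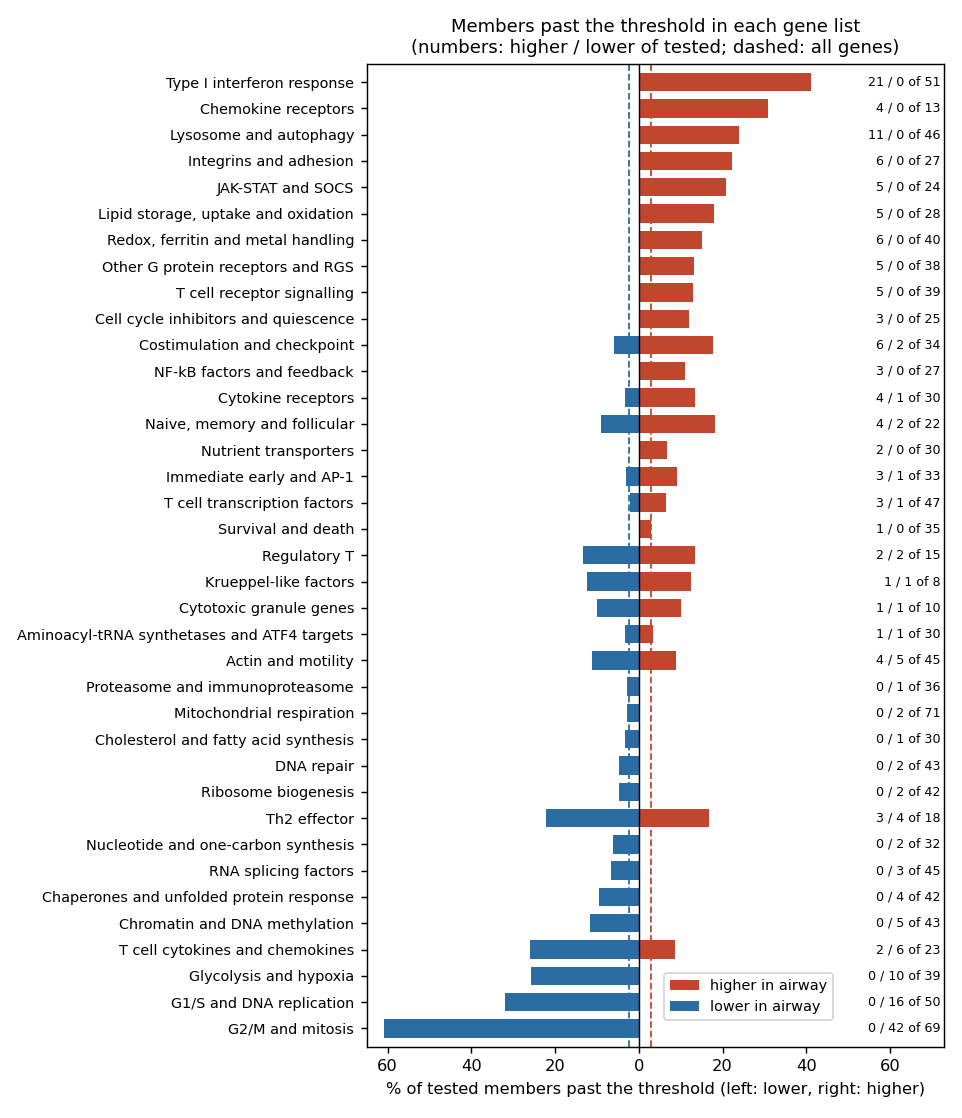
Percent of tested members that rose (red, to the right) or fell (blue, to the left) in each program list, with the counts at the right edge. Dashed lines mark all genes tested, 2.92% risen and 2.29% fallen; mitosis reaches farthest to the left and the interferon response farthest to the right.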

How the data were processed

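RNA of sorted Th2 cells was sequenced in 6 libraries, 3 of airway and 3 of lymph node cells, compared here; 11 further libraries of OTII mice served for scaling and for levels beside them. For each library the authors provided RPKM in a table of 24537 genes, each under 1 RefSeq transcript on mm10. Per the submitters' processing notes, HISAT2 2.0.4, HOMER and DESeq2 were used; the handling of reads that match several places is not given in the sources used here, and the authors' comparison tables were not analysed.

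Multiplied by transcript length, low values fell on steps of 1 whole read (tolerance 0.1 reads, checked below 100 reads, 100% whole), which gave the reads behind each value. RPKM was divided by median-of-ratios factors taken over 6796 genes that reached 1 in each of the 17 libraries. OTII ranges use the same scaling, while the classes by culture level use the deposited RPKM. The groups were compared with limma 3.58.1 in R 4.3.3 (lmFit, eBayes with trend) on log2(scaled RPKM + 1), two-sided, with no block; the adjustment covered the 10275 genes. The fit was also run on simulated independent normal values. These had no missed transcripts and no differences in quality between libraries, so the run does not bear on either.

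The members and the gene lists were chosen with earlier results of these data known. Named genes are those of program lists with at least 2 called members (up to 3 per direction by p, kept genes first), the strongest kept genes expressed or below 1 in culture, the 5 largest differences in mean per direction, Gata3, Notch1, Notch2 and T cell markers; some are left to counts. Plin2, Dhx58, Zbp1, Ifit1, Cdk1, Cdc20, Cks1b, Ube2c, Gbp2, Irgm1, Hdc, Mcpt8, Il5 and Il13 were named after their values were seen. Of the tested genes, 8166 matched a gene of the RefSeq promoter table (GRCm38.p6) and 7953 a start within 500 bases of the deposited one. Motifs were searched in the 250 bases before it, both strands, with 9 motifs searched and 4 described.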

Additional observations from a re-analysis of the deposited data

How the results depend on the processing

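Genes called higher, lower and in all numbered 300, 235 and 535 in the comparison as reported. Without the filter on low values they numbered 126, 98 and 224, without a variance trend 116, 109 and 225, and with voom on recovered reads, where the share of whole reads was 100%, 158, 92 and 250. A pseudocount of 0.1 gave 147 lower. With airway replicate 3 as the only airway library, added after seeing the data, 28, 22 and 50 passed, the lone library being assumed to vary like the lymph node group. Leaving out 1 library gave 101 to 267 higher, 41 to 308 lower and 142 to 534 in all. No result reported changed direction under these settings while called, and the cause of these moves was not tested. Of the 121 kept genes, 119 passed with a pseudocount of 0.1, 103 without the filter, 90 without the trend and 88 with voom, and 88 with RPKM of at least 1 required in all 6 libraries, where some were not tested.

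The labels do not say that equal replicate numbers link airway and lymph node libraries. Deviations of same-numbered libraries correlated at 0.0038, 0.0182 and 0.0294, each library best with its own number. Replicate 2 of both groups was the only one with Y-linked transcripts (Ddx3y 13.7 and 16.7, listed at 0 in the other 4), so a shared source is a hint from the data and not the design. With the number as a replicate block, 226 rose, 169 fell and 395 passed in all, and all 121 kept genes passed. Depth limits small changes more than large ones, and a gene at 0 may hold up to 3 reads' worth.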
